A study of Homo sapiens with 6 samples.

Results

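The enzymes that make serine from glucose carbon and those that carry its one-carbon units on folate were followed in p53-null HCT116 cells. HCT116 is an established line from a human colorectal carcinoma. The 9 genes are PHGDH, PSAT1 and PSPH of serine synthesis, SHMT2, MTHFD2, MTHFD1L and ALDH1L2 of the mitochondrial folate pathway, and SHMT1 and MTHFD1 of the cytosolic one. They were chosen by name, with earlier results of these data known. The array annotation gave them 13 probes, of 30112 probes with 1 gene symbol, for 9 of 20046 genes. One group received TIC10 (the compound ONC201) at 10 µM and the other 0.05% DMSO alone, and RNA was taken at 48 h. Illumina bead arrays numbered 3 for TIC10 and 3 for DMSO, and every sample came from p53-null cells. Separate cultures are not stated in the labels. The p-values therefore rest on the spread between arrays, which may be technical only.

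Serine synthesis draws 3-phosphoglycerate out of glycolysis, and PHGDH, PSAT1 and PSPH catalyse its successive steps. In mitochondria SHMT2 splits serine into glycine and a one-carbon unit, MTHFD2 oxidises that unit on folate, and MTHFD1L releases it as formate. ALDH1L2 instead burns it to carbon dioxide and makes NADPH. In the cytosol the trifunctional MTHFD1 takes up formate for purines and thymidylate, and SHMT1 interconverts serine and glycine there. Proliferating tumour cells usually run the mitochondrial branch toward formate and the cytosolic branch from it. In textbook accounts ATF4, the transcription factor of the integrated stress response, activates several of these genes, among them PHGDH, PSAT1, SHMT2 and MTHFD2.

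In TIC10-treated cells 4 of the 9 genes rose and 1 fell. MTHFD2 rose 2.65-fold, PSAT1 2.42-fold, MTHFD1L 2.07-fold and PHGDH 1.68-fold, while SHMT1 fell to 0.251 of its DMSO level. PSPH, SHMT2, MTHFD1 and ALDH1L2 did not pass. The test was limma on quantile-normalized log2 intensities, and a gene was called when its p, adjusted by Benjamini-Hochberg over 14534 genes, was under 0.05. Among all genes tested, 10.4% were higher and 13.4% lower by the same rule. All 3 TIC10 values lay above all 3 DMSO values in 5 of the 9 genes and below them in 2, beside 18.5% and 23.1% of all genes. Probe by probe, 4 of the 12 kept probes were higher and 2 lower, beside 8.66% and 9.31% of all kept probes. The median log2 change of the 9 genes was 0.40, beside -0.01 for all genes. Scaling the arrays to one median in place of quantile normalization left 0 of the 9 genes higher and SHMT1 lower, where 2.17% of all genes were higher and 13.7% lower. Under it the log2 change of MTHFD2 was 1.00 (adjusted p = 0.101), that of PSAT1 0.82 (adjusted p = 0.0797), that of MTHFD1L 0.59 (adjusted p = 0.442) and that of PHGDH 0.34 (adjusted p = 0.136). Over 15 alternatives the adjusted p of MTHFD2 ran from 1.07e-05 to 0.101 and that of PSAT1 from 2.43e-07 to 0.0797. That scaling turned the split of all called genes from 1513 higher and 1950 lower into 315 higher and 1996 lower, and moved the median change of all genes to -0.15.

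The promoter windows of the reference table let the letters upstream of the genes be set beside their changes. The table held windows for 6 of the 9 genes, each covering 250 bases before and 50 after a start site, and MTHFD1L had 4 of them. The windows were searched on both strands for TGATGNAA, the core of the composite element that ATF4 binds with C/EBP partners, for the palindrome TGACGTCA of the ATF and CREB factors, and for the E-box CACGTG. Of 35116 windows in the table, 3.62% held TGATGNAA, 1.85% TGACGTCA and 7.26% CACGTG. Of the 6 genes, MTHFD1L held TGATGNAA, in 3 overlapping windows that share one match. It lies at chr6:150866357-150866364 of GRCh38.p14, and an E-box lies upstream of it at chr6:150866332-150866337. MTHFD1, the cytosolic counterpart, held only an E-box, beginning 15 bases before its start site. The windows of PHGDH, PSAT1, MTHFD2 and SHMT1 held none of the 3 motifs, which says only that these letters are not in these windows. Shown are the MTHFD1L window, the MTHFD1 window to contrast the mitochondrial and cytosolic genes of one enzyme family, and those of PSAT1 and MTHFD2, which rose without a match (RefSeq, GRCh38.p14, plus strand, capitals mark motif matches).
MTHFD1L, chr6:150866236-150866535: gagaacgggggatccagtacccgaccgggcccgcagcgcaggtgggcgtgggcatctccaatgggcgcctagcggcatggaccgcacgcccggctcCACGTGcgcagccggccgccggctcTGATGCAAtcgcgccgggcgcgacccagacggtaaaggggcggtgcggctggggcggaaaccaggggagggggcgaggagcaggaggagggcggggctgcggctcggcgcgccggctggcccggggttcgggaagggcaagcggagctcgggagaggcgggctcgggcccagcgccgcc
MTHFD1, chr14:64388103-64388402: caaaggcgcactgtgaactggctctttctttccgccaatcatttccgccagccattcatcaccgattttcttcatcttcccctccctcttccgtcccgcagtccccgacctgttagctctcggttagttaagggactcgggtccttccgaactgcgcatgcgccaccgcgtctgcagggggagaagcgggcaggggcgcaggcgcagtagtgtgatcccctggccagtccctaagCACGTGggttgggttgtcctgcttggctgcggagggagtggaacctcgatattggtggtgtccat
PSAT1, chr9:78296875-78297174: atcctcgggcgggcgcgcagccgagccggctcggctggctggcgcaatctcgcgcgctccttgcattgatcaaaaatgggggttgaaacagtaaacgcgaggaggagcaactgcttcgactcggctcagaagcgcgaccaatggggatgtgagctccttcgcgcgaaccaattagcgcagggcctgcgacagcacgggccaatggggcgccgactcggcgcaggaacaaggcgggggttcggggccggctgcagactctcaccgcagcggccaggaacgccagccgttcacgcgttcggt
MTHFD2, chr2:74198365-74198664: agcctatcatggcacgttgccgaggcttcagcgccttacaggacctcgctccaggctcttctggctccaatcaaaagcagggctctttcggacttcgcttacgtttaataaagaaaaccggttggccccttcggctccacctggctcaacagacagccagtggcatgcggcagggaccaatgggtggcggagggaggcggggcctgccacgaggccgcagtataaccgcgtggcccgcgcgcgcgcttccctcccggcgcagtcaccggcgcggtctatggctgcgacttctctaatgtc

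The arrays were not alike in brightness. The median intensity over all probes was 42.6 to 43.6 on TIC10 arrays, against 46.0 to 49.6 on DMSO arrays, and DMSO replicate 3 had a mean intensity of 404, beside 297 and 270.0 on DMSO replicates 1 and 2. Its normalized genes lay 0.43 (root mean square, log2) from the mean of the other DMSO arrays, where the other 5 arrays lay 0.15 to 0.27 from theirs. For the 9 genes the median deviation of DMSO replicate 3 was 0.47, and in 7 of the 9 it was the highest DMSO array. Results are therefore also given without it. Of 8 epithelial and colorectal markers 7 passed the brightness filter, with EPCAM above percentile 99.0 of every array and VIL1 at most at percentile 15.7. Summed, they gave 13259 to 16726 on TIC10 arrays, against 14828 to 22296 on DMSO arrays. The summed intensity of 4 measured leukocyte markers was 174 to 188 on TIC10 arrays, against 199.8 to 244 on DMSO arrays. That of 5 fibroblast markers was 217 to 237 with TIC10, against 248 to 293 with DMSO, and that of 3 endothelial markers 104 to 109.96 with TIC10, against 111 to 128 with DMSO. Single leukocyte, fibroblast and endothelial probes reached at most percentile 69.9, 71.5 and 54.7 of an array, and many read near the median of all probes. Their sums may be largely background and do not show that cells of these types were present. The part of the markers in the results was not tested. In bulk RNA, fewer cells of a type and less RNA per cell cannot be told apart. MTHFD2L was not analysed here.

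**Figure D1:**
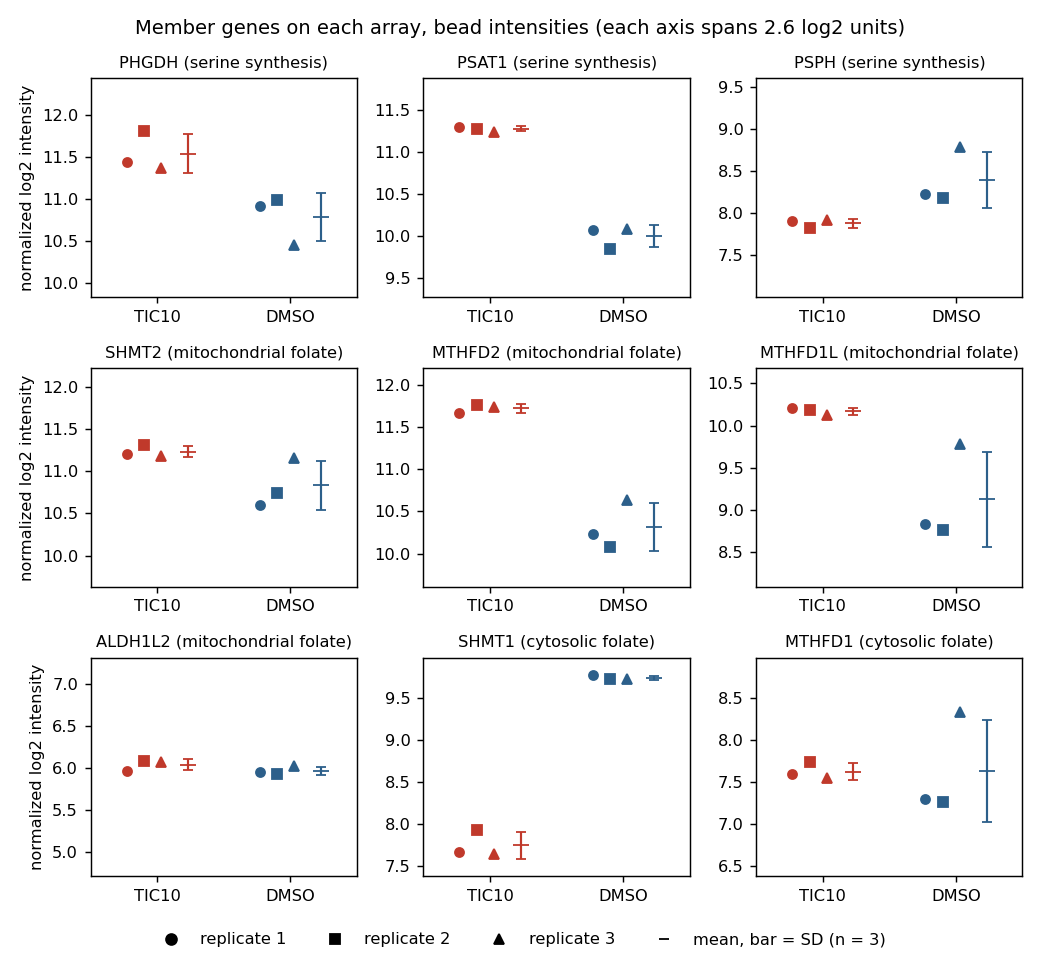
Normalized log2 intensity of the 9 genes on each of the 3 TIC10 arrays (red) and the 3 DMSO arrays (blue). Symbols mark replicates and bars show mean and SD. In MTHFD1, MTHFD1L, SHMT2, MTHFD2 and PSPH the triangle of DMSO replicate 3 lies above the other DMSO arrays, and in SHMT1 the 3 TIC10 arrays lie near 7.75 against 9.74 on DMSO arrays.

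PSAT1, the aminotransferase of the second step of serine synthesis, had the tightest rise of the serine enzymes. Its normalized log2 intensity was 11.30, 11.27 and 11.24 on TIC10 replicates 1 to 3, against 10.07, 9.84 and 10.08 on DMSO replicates 1 to 3. The groups did not overlap, and the TIC10 arrays had an SD of 0.03 against 0.13 on the DMSO arrays. The change was 1.27 ± 0.09 (log2, SE of the limma fit, adjusted p = 0.00035), rank 139 among all genes ordered by rise. A further probe, annotated to another PSAT1 transcript, read 31.2 to 34.3 in raw intensity on TIC10 arrays, against 36.1 to 37.8 on DMSO arrays. At percentile 11.6 of its array or lower, it failed the brightness filter, and no change was detectable at this intensity.

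PHGDH, which commits 3-phosphoglycerate to serine, read 11.44, 11.81 and 11.38 on TIC10 arrays and 10.92, 10.99 and 10.46 on DMSO arrays. The groups did not overlap, and DMSO replicate 3 was the lowest. The change was 0.75 ± 0.18 (limma, adjusted p = 0.0241). Without TIC10 replicate 1, 2 or 3 in turn the change was 0.80, 0.62 and 0.83. The call was then lost (adjusted p = 0.0676, 0.0742 and 0.0514; 0.000534 to 0.136 over 15 alternatives). With these arrays left out in turn, 891, 1103 and 937 of all genes were called higher, against 1513 with every array. Without DMSO replicate 3 the change was 0.59 ± 0.13.

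PSPH, the phosphatase that completes serine synthesis, did not pass. Its brighter probe read 7.91, 7.82 and 7.92 on TIC10 arrays and 8.23, 8.19 and 8.78 on DMSO arrays. All TIC10 values lay below all DMSO values. The change was -0.51 ± 0.16 (limma, adjusted p = 0.0664). It passed without DMSO replicate 3, at -0.31 ± 0.08 (adjusted p = 0.0162), and as the mean of its probes, at -0.52 (adjusted p = 0.0368; 0.0162 to 0.171 over 15 alternatives). The dimmer probe gave -0.52 ± 0.14, close to the brighter one. In the series matrix, the authors' own processed values, PSPH differed in the opposite direction, by 0.33 ± 0.12 (adjusted p = 0.141), and all 3 TIC10 values lay above all 3 DMSO values there. The dimmer probe also changed sign there, at 0.46 ± 0.14, and did not pass (limma, adjusted p = 0.112 over all kept probes).

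Of the mitochondrial enzymes, MTHFD2 changed most. This dehydrogenase and cyclohydrolase, high in embryonic and tumour tissue, read 11.67, 11.77 and 11.74 on TIC10 arrays and 10.23, 10.08 and 10.63 on DMSO arrays. Its raw intensity was 2503, 2767 and 3162 on TIC10 arrays and 1251, 966 and 2519 on DMSO arrays, so that DMSO replicate 3 overlapped the TIC10 arrays before normalization and not after it. The change was 1.41 ± 0.14 (limma, adjusted p = 0.00111), rank 95 among all genes ordered by rise. Without DMSO replicate 3 it was 1.58 ± 0.09.

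MTHFD1L, the mitochondrial formyltetrahydrofolate synthetase, read 10.21, 10.18 and 10.12 on TIC10 arrays and 8.83, 8.76 and 9.78 on DMSO arrays. The TIC10 arrays were tight, while DMSO replicate 3 stood 0.98 above the mean of DMSO replicates 1 and 2. The change was 1.05 ± 0.26 (limma, adjusted p = 0.0294), and 1.36 ± 0.08 without DMSO replicate 3 (adjusted p = 1.32e-05). Leaving out any one of the other 5 arrays gave an adjusted p of 0.0803 to 0.102 (1.32e-05 to 0.442 over 15 alternatives).

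SHMT2, the mitochondrial serine hydroxymethyltransferase, read 11.21, 11.31 and 11.19 on TIC10 arrays and 10.60, 10.74 and 11.16 on DMSO arrays. The groups did not overlap by a narrow margin, set by DMSO replicate 3. The change of 0.40 ± 0.15 did not pass (limma, adjusted p = 0.101). Without DMSO replicate 3 it was 0.56 ± 0.09 and passed (adjusted p = 0.00148), and after scaling the arrays to one median it was -0.05 (adjusted p = 0.945; 0.00148 to 0.945 over 15 alternatives). ALDH1L2 read 38.2 to 43.4 in raw intensity on TIC10 arrays, against 39.2 to 45.8 on DMSO arrays, never above percentile 49.4 of its array. It passed the brightness filter but not the stricter one, and its difference of 0.07 ± 0.07 did not pass (adjusted p = 0.583). No change was detectable at this intensity. Its cytosolic counterpart ALDH1L1 failed the filter, at percentile 44.4 or lower.

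SHMT1, the cytosolic serine hydroxymethyltransferase, fell on every TIC10 array. Its brightest probe read 7.67, 7.93 and 7.64 on TIC10 arrays and 9.77, 9.73 and 9.72 on DMSO arrays. In raw intensity these were 145, 173 and 162 on TIC10 arrays and 901, 757 and 1329 on DMSO arrays. The groups lay far apart, and after normalization DMSO replicate 3 lay within 0.03 of the mean of the other DMSO arrays. The change was -1.99 ± 0.10 (limma, adjusted p = 0.000155), rank 42 among all genes ordered by fall. The call held in all 15 alternatives, with changes from -2.38 to -0.63, and the change was -1.03 with the mean of its probes. Every alternative but that mean used the brightest probe alone. A probe annotated to the same transcript gave -0.80 ± 0.13 (adjusted p = 0.00891 over all kept probes). The probe annotated to another SHMT1 transcript gave -0.31 ± 0.10 and did not pass (adjusted p = 0.0861). Both were dimmer than the first, at percentile 49.0 to 76.1 and 66.5 to 73.4 of their arrays. Neither passed in the series matrix, at -0.37 and -0.27 (limma, adjusted p = 0.131 and 0.198 over all kept probes).

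MTHFD1, the cytosolic trifunctional enzyme, read 7.60, 7.74 and 7.55 on TIC10 arrays and 7.30, 7.26 and 8.34 on DMSO arrays. Its groups overlapped only through DMSO replicate 3, whose raw intensity was 469.7 beside 143 and 126 on DMSO replicates 1 and 2. The change was -0.01 ± 0.28 (limma, adjusted p = 0.991). Without DMSO replicate 3 it was 0.33 ± 0.09 and passed (adjusted p = 0.0183; 0.0183 to 0.994 over 15 alternatives). With that array left out, 6 of the 9 genes were higher and 2 lower, where 16.2% of all genes were higher and 19.1% lower. SHMT2 and MTHFD1 joined the 4 that rose, and PSPH joined SHMT1.

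**Figure D2:**
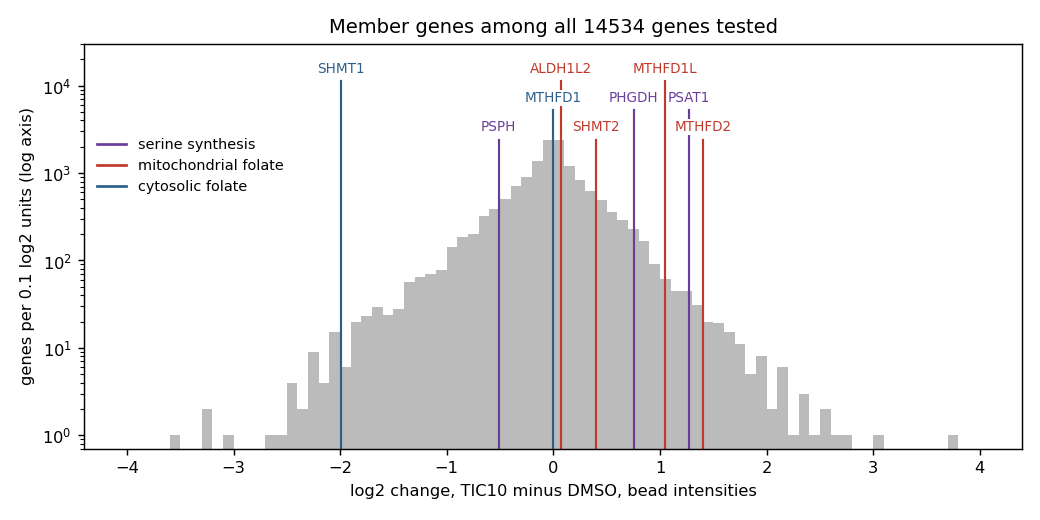
Distribution of log2 changes (TIC10 minus DMSO) of all 14534 genes tested, on a log count axis, with the 9 genes drawn as lines coloured by role. MTHFD2 and PSAT1 lie in the upper tail at 1.41 and 1.27, SHMT1 in the lower tail at -1.99, and MTHFD1 and ALDH1L2 near 0.

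The mitochondrial enzymes were then set against their cytosolic counterparts within each array, which cancels any brightness that an array gives both probes alike. The value is the difference of 2 probes' log2 intensities. Its level carries the brightness of the probes, so only its shift between groups can be read. For SHMT2 minus SHMT1 the difference was 3.54, 3.39 and 3.55 on TIC10 arrays and 0.83, 1.01 and 1.44 on DMSO arrays. The shift of 2.40 was the largest of the 3 pairs in the bead intensities with the brightest probes, and most of it was the fall of SHMT1. With the mean of the probes it was 1.44, close to the MTHFD2 pair at 1.41. For MTHFD2 minus MTHFD1 the difference was 4.07, 4.03 and 4.19 on TIC10 arrays and 2.93, 2.82 and 2.29 on DMSO arrays, a shift of 1.41. For MTHFD1L minus MTHFD1 it was 2.61, 2.44 and 2.58 on TIC10 arrays and 1.53, 1.50 and 1.44 on DMSO arrays, a shift of 1.05. In the last pair the DMSO arrays spread by only 0.05 (SD), and on DMSO replicate 3 MTHFD1L and MTHFD1 stood 0.98 and 1.06 above the mean of the other DMSO arrays.

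In each of the 3 pairs all TIC10 arrays lay above all DMSO arrays. For SHMT2 minus SHMT1 this followed from values already given, SHMT2 being above on every TIC10 array and SHMT1 below. The MTHFD2 and MTHFD1L pairs share MTHFD1, so they are not independent. The exact permutation test (two-sided, 3 arrays against 3) gave p = 0.1 for each pair and 0.1 after adjustment over the 3 pairs, the smallest p this design allows. With DMSO replicate 3 left out before normalization the shifts were 2.52, 1.25 and 1.03. Averaged over SHMT2, MTHFD2 and MTHFD1L the change was 0.95, and over SHMT1 and MTHFD1 it was -0.999, a difference of 1.95 with no test. ALDH1L2 was left out of this mean because it was too dim. The 2 cytosolic genes did not share a change, so the cytosolic mean describes SHMT1 more than the compartment.

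**Figure D3:**
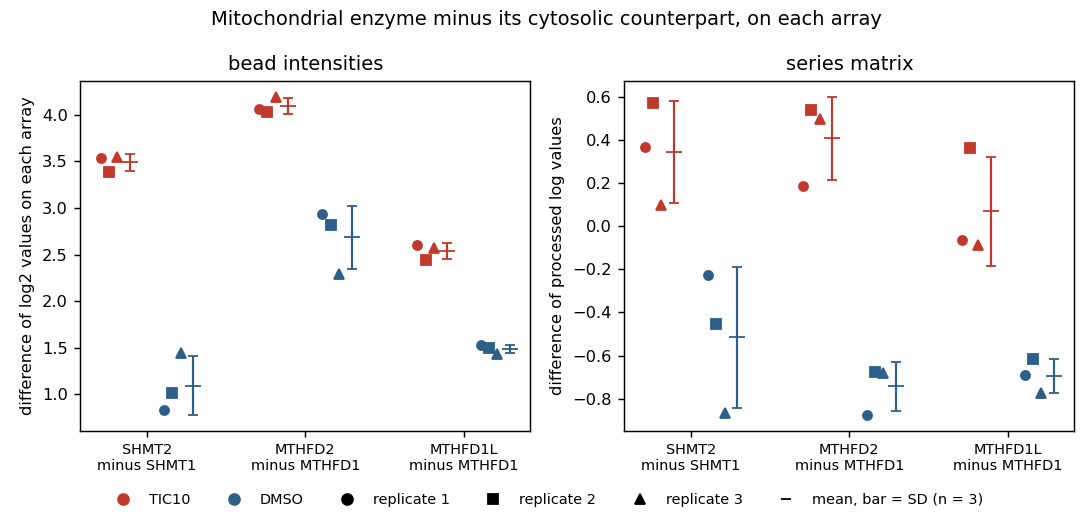
Difference of log2 values between a mitochondrial enzyme and its cytosolic counterpart on each TIC10 array (red) and each DMSO array (blue), in the bead intensities (left) and the series matrix (right). Bars show mean and SD of 3 arrays. In all 3 pairs and both tables the TIC10 arrays lie above the DMSO arrays, and the shift of SHMT2 minus SHMT1 is 2.40 on the left and 0.86 on the right.

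The series matrix was tested separately with the same limma fit. It holds log values that the authors centred per probe, with a base and scaling not given in the sources used here, so its changes were taken as log2. There PHGDH, PSAT1, MTHFD2 and MTHFD1L were higher and SHMT1 was lower, the genes called in the bead intensities, where 3.68% of all genes were higher and 3.02% lower. PSAT1 changed by 1.84 ± 0.11 (adjusted p = 2.43e-07), PHGDH by 1.28 ± 0.18 (adjusted p = 0.000534), MTHFD2 by 1.19 ± 0.12 (adjusted p = 2.53e-05) and MTHFD1L by 0.80 ± 0.11 (adjusted p = 0.000462). By rise they ranked 10, 37, 46 and 124 of 14534 genes. The estimates of PSAT1 and PHGDH were larger than in the bead intensities and those of MTHFD2 and MTHFD1L smaller, with no test between the tables. SHMT1 changed by only -0.63 ± 0.14 (adjusted p = 0.0186), rank 103 by fall.

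SHMT2 differed by 0.23 ± 0.12 (adjusted p = 0.311), MTHFD1 by 0.04 ± 0.12 (adjusted p = 0.934) and ALDH1L2 by -0.02 ± 0.10 (adjusted p = 0.955) in the series matrix. The 3 within-array shifts there were 0.86, 1.15 and 0.77, MTHFD2 minus MTHFD1 being the largest, each with the TIC10 arrays above the DMSO arrays and an exact permutation p = 0.1.

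Same-numbered arrays of the 2 tables did not deviate alike. In the series matrix MTHFD1 read -0.04, -0.09 and -0.07 on DMSO replicates 1 to 3, with no array apart. Over 14534 genes, the deviations of same-numbered arrays from their group means correlated across the tables at 0.04, -0.55 and -0.09 for TIC10 replicates 1 to 3 and at 0.08, -0.00 and -0.19 for DMSO replicates 1 to 3. Some differently numbered arrays correlated better, TIC10 replicate 2 of the bead intensities with TIC10 replicate 1 of the matrix at 0.43 and TIC10 replicate 3 with TIC10 replicate 2 of the matrix at 0.47. These correlations run across genes, which are not independent replicates. Deviations from a group mean cancel over the arrays of the group, so a negative correlation with one column forces positive ones with others. Whether same-numbered columns of the tables hold the same array is therefore not settled by the values. Of 672 genes called in both tables, 663 had the same direction and 9 the opposite one.

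**Figure D4:**
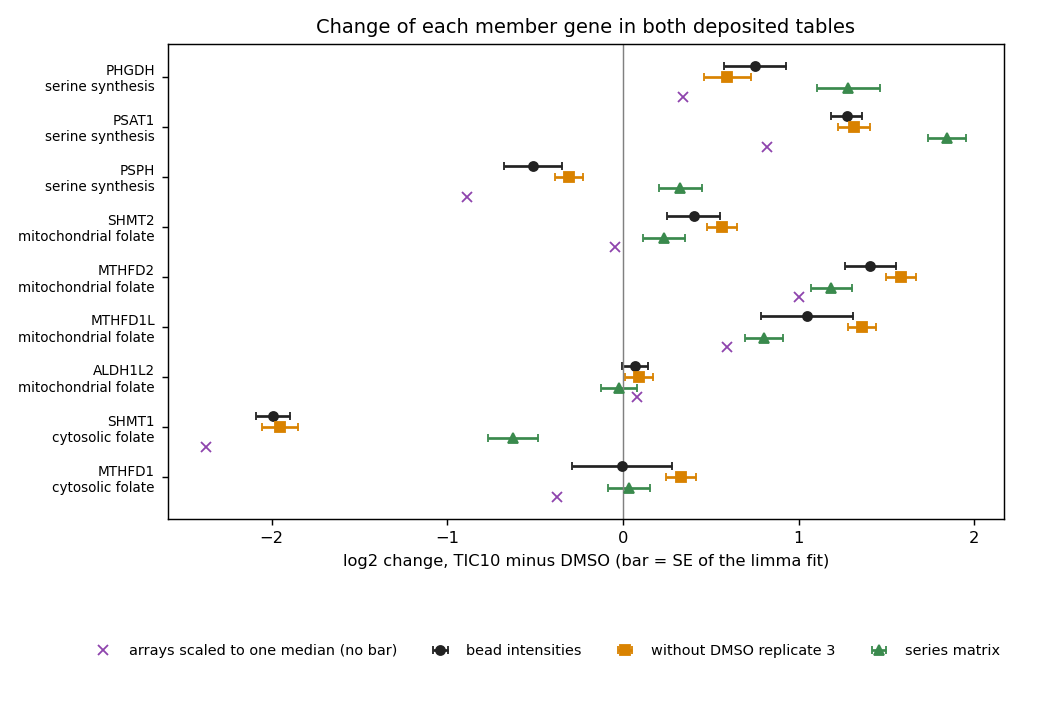
Log2 change (TIC10 minus DMSO) of the 9 genes in the bead intensities, the same without DMSO replicate 3, the series matrix, and the bead intensities with arrays scaled to one median. Bars are SE of the limma fit. PSPH lies at -0.51 in the bead intensities and 0.33 in the series matrix, while SHMT1 lies below 0 in all 4.

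Around the 9 genes, other genes of folate supply were lower or did not pass. Of 15 on the list 10 were tested, with 5 lower and 0 higher and a median log2 change of -0.37, beside 13.4% of all genes lower and 10.4% higher. With arrays scaled to one median 4 were lower and 0 higher, beside 13.7% and 2.17% of all genes. TYMS, thymidylate synthase, which uses the one-carbon unit that SHMT1 can supply, fell by 1.97 on the log2 scale (SE 0.11, limma, adjusted p = 0.000189). GGH, which trims folate polyglutamates, changed by -1.03 ± 0.15, with a further probe at -0.84 that did not pass. The folate receptor FOLR1 changed by -0.92 ± 0.08, with a further FOLR1 probe at -0.89. FOLR1 had a mean log2 intensity of 6.14 on TIC10 arrays, near the dim ALDH1L2 at 6.03, against 7.06 on DMSO arrays. It had no value under the stricter filter and changed by -0.10 in the series matrix (limma, adjusted p = 0.73). At such low intensity the size of its fall is uncertain. In the series matrix only TYMS of this list passed, at -0.57 (adjusted p = 0.011), where 3.02% of all genes were lower and 3.68% higher.

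Genes of serine and glycine use and transport moved both ways. Of 17 on the list 14 were tested, with 4 higher and 3 lower and a median of 0.10, beside 10.4% of all genes higher and 13.4% lower. The glycine transporter SLC6A9 rose by 1.50 ± 0.12 (limma, adjusted p = 0.000499), although a further probe gave -0.04, and it rose by 1.36 in the series matrix. GLDC, the decarboxylase of the glycine cleavage system, changed by -1.54 ± 0.07 (adjusted p = 0.000144), but by -0.18 in the series matrix (adjusted p = 0.502; 1.07e-05 to 0.502 over 15 alternatives). DMGDH, a mitochondrial dehydrogenase of choline breakdown, changed by 0.72 ± 0.09, and SPTLC2, which joins serine to palmitoyl-CoA, by -0.68 ± 0.12. Neither passed in the series matrix. The mean log2 intensity of DMGDH was 6.695 on TIC10 arrays and 5.97 on DMSO arrays, where that of the dim ALDH1L2 was 5.96. The brightness filter asked for 3 arrays, so the TIC10 arrays alone could let DMGDH pass. It had no value under the stricter filter, and the size of its change is uncertain. Chosen after their values were seen, the neutral amino acid transporter SLC1A4 (0.51 ± 0.10) and the glycine cleavage gene AMT (0.62 ± 0.11) also rose. SLC1A4 had an adjusted p of 0.052 without DMSO replicate 2 (limma, 0.00033 to 0.052 over 14 alternatives). Its mean log2 intensity was 6.58 on TIC10 arrays and 6.07 on DMSO arrays, near the dim ALDH1L2. As with DMGDH, the TIC10 arrays alone could let SLC1A4 pass the filter. It had no value under the stricter one, and the size of its change is uncertain. AMT lost its call with arrays scaled to one median (adjusted p = 0.222) and in the series matrix (0.00382 to 0.222 over 15 alternatives). In the series matrix 3 genes of this list were higher and 0 lower, beside 3.68% and 3.02% of all genes.

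In the methionine cycle and transsulfuration, 6 of 11 genes were tested and 1 was higher, 1 lower, with a median of 0.16. Counts this small are near the 10.4% and 13.4% of all genes. CTH, the cystathionine lyase that makes cysteine, changed by 0.47 ± 0.11 (limma, adjusted p = 0.0264) and by 0.54 in the series matrix. With arrays scaled to one median the change of CTH was 0.09 and did not pass (adjusted p = 0.817). Its call was also lost under the replicate block and without TIC10 replicate 1 or 3 or DMSO replicate 1 or 2, where the change was 0.36 to 0.52 (0.0102 to 0.817 over 15 alternatives). MAT2A, which makes S-adenosylmethionine, changed by -0.66 ± 0.11 (adjusted p = 0.00722), and by -0.27 in the series matrix, where it did not pass. With arrays scaled to one median the medians were -0.61 for folate supply, -0.32 for serine and glycine use and -0.21 for the methionine cycle, beside -0.15 for all genes.

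**Figure D5:**
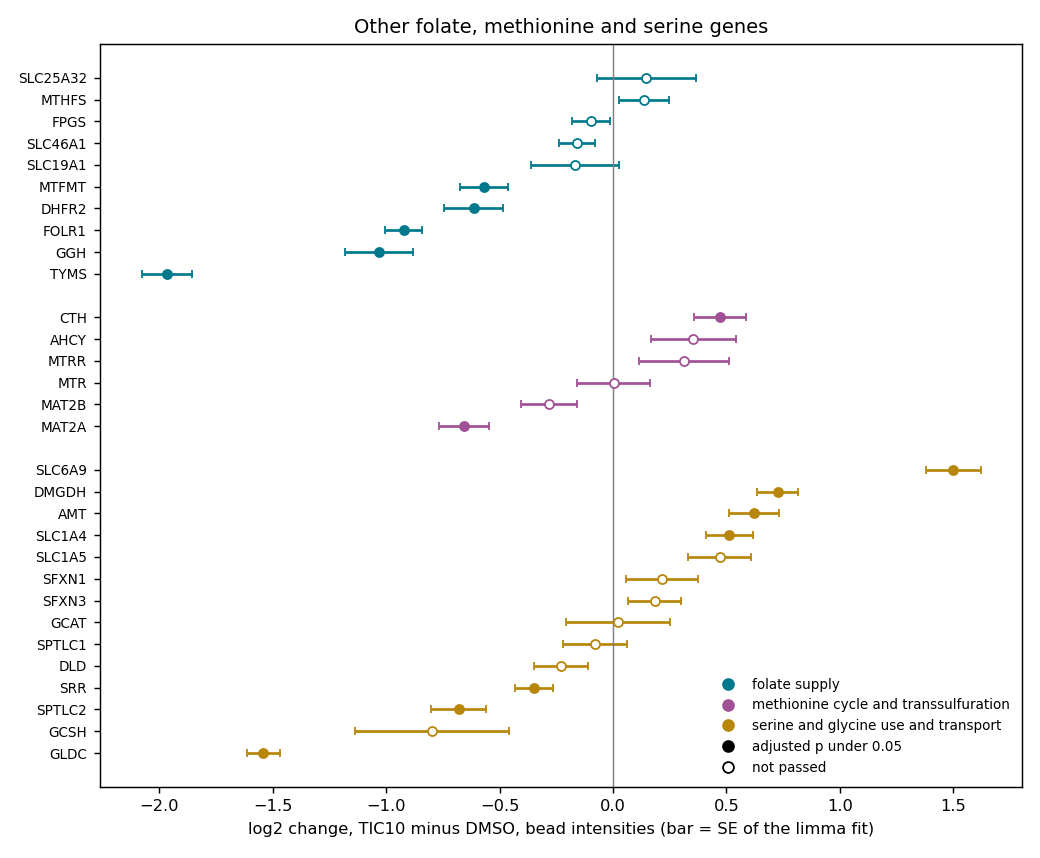
Log2 change (TIC10 minus DMSO, bead intensities) of the tested genes of 3 further lists, with SE of the limma fit. Filled points passed an adjusted p under 0.05. No gene of folate supply passed above 0, while SLC6A9 at 1.50 and GLDC at -1.54 bound the serine and glycine list.

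The stress and growth regulators measured beside the enzymes give the scale of their changes. ATF4 changed by 0.86 ± 0.14, with further probes at 0.38 and 1.92, and lost its call with arrays scaled to one median (0.84, adjusted p = 0.0776; 5.1e-05 to 0.0776 over 15 alternatives). Its target ASNS, asparagine synthetase, changed by 2.46 ± 0.07, DDIT3 by 2.56 ± 0.39 and TRIB3 by 2.37 ± 0.15, so the rises of the serine and folate enzymes were smaller than those of the 3 target genes. No test was made of that difference. NFE2L2, which encodes NRF2, changed by 0.80 ± 0.23 (limma, adjusted p = 0.0442) and lost its call in 8 of 15 alternatives. The MYC difference of 0.96 ± 0.47 did not pass (limma, adjusted p = 0.201), and DMSO replicate 3 again stood apart. Without that array it was 1.57 (adjusted p = 1.11e-05), the only alternative of 15 in which MYC passed. Smaller values came from the series matrix, at 0.24 (adjusted p = 0.295), and from scaling to one median, at 0.55 (adjusted p = 0.651, the largest of all alternatives). The size of the MYC change is therefore uncertain.

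SHMT1, by its brightest probe the gene of the set with the largest change in the bead intensities, was set beside all genes tested by the root mean square distance of mean-centred log2 values over the 6 arrays. The 3 nearest genes were CCNA2, which encodes the S and G2 phase cyclin A2, at a distance of 0.06, the ubiquitin-conjugating enzyme UBE2T at 0.09 and the importin KPNA2 at 0.09. They changed by -2.02 ± 0.11, -1.89 ± 0.09 and -2.03 ± 0.11. Changes close to that of the SHMT1 probe follow from the choice by distance on the same arrays and are no separate result.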

How the data were processed

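Total RNA of 6 samples was profiled on Illumina arrays. The deposited bead table held linear intensity values of 47319 probes, not normalized per the file's name. Whether the authors subtracted a local background is not stated. Columns headed Control were assigned to DMSO replicates by their number. The deposited series matrix held log values taken as log2, centred per probe by the authors. Sources used here state neither base, scaling nor centring reference. The matrix columns had medians of 0.0304, -0.0956 and 0.0291 for TIC10 replicates 1 to 3 and -0.0556, -0.000809 and 0.0687 for DMSO replicates 1 to 3.

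Intensities were corrected in limma 3.58.1 (R 4.3.3) with normexp (offset 50), quantile normalized and taken to log2. The 29440 probes above percentile 40 of their array on at least 3 arrays were kept, 12 of the 13 probes of the 9 genes among them. A gene was its brightest kept probe. Several symbols were found for 8 probes and none for 17199, and Entrez numbers of 30073 probes matched GRCh38.p14 names. TIC10 was compared with DMSO by limma (lmFit, eBayes, two-sided), over all 14534 genes and, for single probes, over all kept probes. Differences between 2 genes on an array were compared by exact permutation. The members, lists and motifs were chosen with earlier results of these data known. Named were all 9 genes, up to 4 called genes per list with the largest change, a panel of regulators, and the 3 genes nearest the member with the largest change. One gene of the folate supply list that this rule named is not reported here. Same-numbered TIC10 and DMSO arrays deviated from their group means with correlations of -0.15, 0.16 and -0.01 in the bead intensities. In the series matrix these were -0.48, -0.08 and 0.46, so the values do not settle whether equal numbers form pairs. No pairing is stated in the labels, and the main fit used none. The fit was tested on simulated data with independent noise of equal spread on every array. No array stood apart there as DMSO replicate 3 does, so that test does not cover such an array. Alternatives were no background correction (offset 16), scaling to one median, cyclic loess, the series matrix, a stricter filter (percentile 60 exceeded on 6 arrays) or none, averaging the kept probes of each gene, robust eBayes with a trend, a replicate block, and dropping each array in turn. Protein sequences were not used here. The summed intensity per array was 1.16e+07 to 1.91e+07, and the number of arrays limits the precision.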

Additional observations from a re-analysis of the deposited data

How the results depend on the processing

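Of the 9 genes, SHMT1 kept its call in 15 of 15 alternatives, by its brightest probe or the mean of its probes. PSAT1 and MTHFD2 kept theirs in 14, PHGDH in 11 and MTHFD1L in 9. Scaling to one median left 0 of the 9 genes higher, and 2 to 6 were higher and 1 to 2 lower with each array left out (2 higher without any one TIC10 array, 6 without DMSO replicate 3). With the mean of a gene's probes 2 were lower. MTHFD1, at -0.01, turned to 0.33 without DMSO replicate 3 and ran from -0.19 to 0.33 with each array left out. The cause of these shifts was not tested. The mitochondrial minus cytosolic difference, 1.95, was 1.04 in the series matrix, 1.47 with the mean of the probes and 1.92 to 2.01 with each array left out. Among all genes, 315 were higher after scaling to one median, 535 were higher and 439 lower in the series matrix, and 891 to 2354 were higher and 1177 to 2772 lower with each array left out. The extremes were without TIC10 replicate 1 (891 and 1177) and without DMSO replicate 3 (2354 and 2772), and 937 and 1213 were found without TIC10 replicate 3. The replicate number as a block gave 4 of the 9 genes higher and 1 lower, and 1265 genes higher and 1611 lower in all. The labels give no shared source for equal numbers. Under the block CTH, NFE2L2 and the serine racemase gene SRR lost their calls (adjusted p = 0.0682, 0.067 and 0.0705). ALDH1L2, DMGDH, FOLR1 and SLC1A4 had no value under the stricter filter. Their low intensity and that of the dimmer probes limit what could be detected.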
